A study of Mus musculus with 24 samples.

Results

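The genes described here code for 7 structural microtubule-associated proteins: Mapt (tau), Map1a, Map1b, Map2, Map4, Map6 and Map7. They were chosen by family and by their levels over the 4 groups, with earlier results of these data in view. The values that chose them are the estimated reads and TPM (a level corrected for transcript length and library depth), summed per gene, with the transcripts of Mapt also kept apart. All 7 of 52352 genes placed in the annotation, with 85 quantified transcripts between them, passed the filter on low counts. RNA of the frontal cortex was measured by poly-A RNA sequencing in 24 mice. They came from litters bred by crossing progranulin heterozygotes (Grn+/-) to animals with the hTDP transgene, which expresses human TDP-43. The labels do not say which mice shared a litter. The 4 groups were Grn+/+ without the transgene, Grn+/+ with it, Grn+/- without it and Grn+/- with it, each with 6 mice, 3 of each sex. Mice were 9.44 to 10.79 months old in the first group, 8.19 to 10.79 months in the third and 9.44 to 10.07 months in both transgenic groups. The sources used here do not give the mouse strain or the promoter that drives the transgene. The design asks how partial loss of progranulin and extra TDP-43 combine.

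Microtubules are hollow polymers of tubulin that give axons and dendrites their shape and carry transport along them, and structural microtubule-associated proteins bind their sides and steady them. Tau is enriched in axons, MAP2 in dendrites, MAP1A and MAP1B are long proteins of mature and growing neurites, MAP6 keeps microtubules stable in the cold, MAP4 is found in most cell types, and MAP7 recruits kinesin motors. Tau and MAP2 are related proteins with the same kind of repeated tubulin-binding motif, and inclusion of an alternative exon adds a further repeat. Mutations of the human genes for tau and progranulin both cause frontotemporal dementia, and TDP-43 forms inclusions in many such cases.

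Libraries held 61445842 to 100859149 estimated reads. The transgene labels held in the reads, with 4328 to 8162 human TARDBP reads in the 12 transgenic libraries and 0 to 2 in the others, and Grn was lower in all 12 Grn+/- libraries (13.8 to 32.9 CPM, reads scaled to library size) than in all 12 Grn+/+ libraries (34.7 to 60.5 CPM). All 11 excitatory and all 7 inhibitory neuron markers examined had reads in every library. A pair of libraries stood apart, both transgenic. Replicate 2 of the transgenic Grn+/+ group had reads for 40188 transcripts, where the other 23 libraries had them for 65994 to 69846. Replicate 1 of the transgenic Grn+/- group differed in transcript use: Map2-204 took 31.8% of its Map2 reads, against 42.4% to 49.7% in the other 23, and Map6-201 took 13.9% of its Map6 reads, against 26.4% to 59.7%. The main values of Mapt and Map2 that rest on the second of these libraries are also given without it.

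The alternative repeat exon of Map2 is shown because its inclusion sets how many tubulin-binding repeats MAP2 has. It is coding, 93 bases long, and lies at chr1:66431527-66431619 on the plus strand of GRCm38.
Map2 repeat exon: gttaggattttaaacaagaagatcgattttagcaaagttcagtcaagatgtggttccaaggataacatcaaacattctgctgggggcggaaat
Exons 2 and 3 of Mapt, which add short inserts to the start of tau, are also alternative and coding. In GRCm38, exon 2 lies at chr11:104287123-104287209 and exon 3 at chr11:104289908-104289994, each 87 bases long.

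Mapt (ENSMUSG00000018411) spans chr11:104231390-104332090 on the plus strand of GRCm38 and has 12 quantified transcripts. Mapt-204, which lacks exons 2 and 3 and codes for 372 amino acids, held 96.3% ± 0.663 of the Mapt reads (SD, n = 24 libraries) and 82.4% of the Mapt level per length (TPM). Mapt-201, with both exons and 430 amino acids, held 2.94% ± 0.597 of the reads and 11.7% of the TPM. Mapt-204 is 5253 bases long, 4119 of them in its last exon, whereas Mapt-201 is 1362 bases long with a last exon of 248 bases. The part of the long 3' end in these shares was not tested. The long forms Mapt-203 and Mapt-202, with large additional exons and 749 and 733 amino acids, reached 1.82 and 0.438 TPM. By length-corrected share, exon 2 was included in 16% ± 2.84 and exon 3 in 12.8% ± 2.26 of the transcripts that span them (SD, n = 24). By share of reads, not corrected for length, the values were 3.43% ± 0.655 and 3.396% ± 0.650. Exon 2 but not exon 3 is also carried by the short fragments Mapt-207 (293 bases, 0 to 22.5 reads per library) and Mapt-208 (418 bases, 0 to 7.79 reads), of which Mapt-207 reached 6.82 TPM. The Map2 repeat exon, carried by 4 of 11 spanning transcripts, was included in 3.98% ± 0.709 (SD, n = 24).

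**Figure D1:**
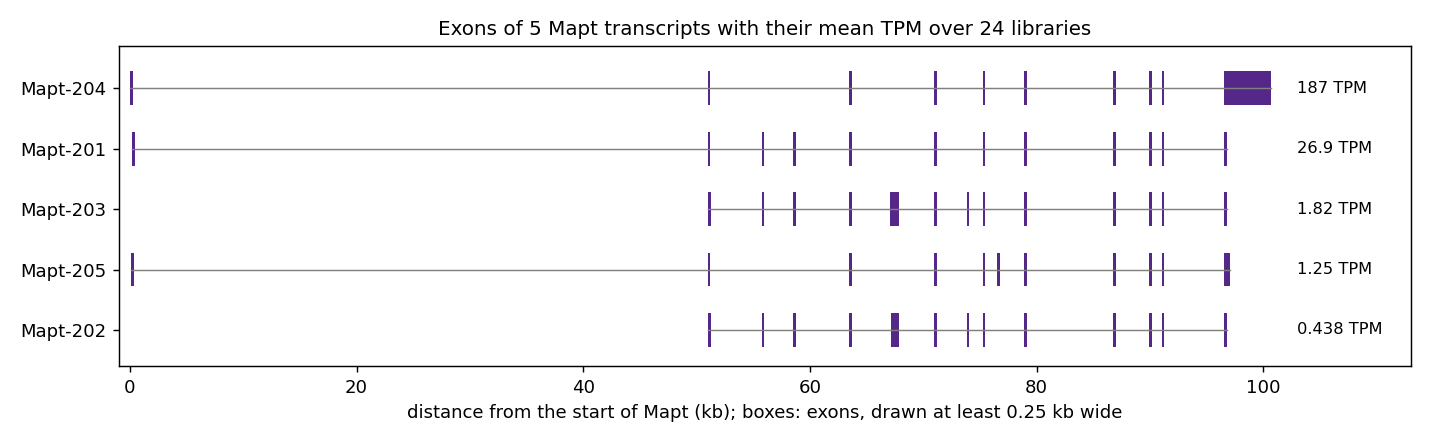
Exons (boxes) of 5 Mapt transcripts against distance from the start of the gene in kb, with each transcript's mean TPM over the 24 libraries. Mapt-204, at 187 TPM, has the long last exon and lacks the pair of exons near 56 and 59 kb that Mapt-201, at 26.9 TPM, carries.

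The other 6 genes lie on other chromosomes. Map1a is at chr2:121289600-121310832, Map2 at chr1:66175273-66442583, Map4 at chr9:109931460-110083955, Map6 at chr7:99267447-99337137 and Map7 at chr10:20148471-20281590, all on the plus strand, and Map1b at chr13:99421446-99516540 on the minus strand (GRCm38). Per length, Map2 was the most abundant of the 7 genes and Map7 the least. Map2 stood at 449 ± 37.5 TPM (SD, n = 24 libraries), Map1a at 311 ± 27.8, Map4 at 266 ± 16.1, Mapt at 228 ± 19.2, Map1b at 192 ± 16.7, Map6 at 106 ± 6.01 and Map7 at 58.4 ± 5.15 TPM. The ranges over libraries overlapped between each neighbouring pair of the first 5 genes, although the order of Map2 over Map1a, Map4 over Mapt and Mapt over Map1b held within 24 of 24 libraries and that of Map1a over Map4 within 22. Map6 lay below Map1b and Map7 below Map6 without overlap. Short annotated fragments add to some of these sums: Map2-218, 546 bases long, held 11.2% of the Map2 TPM from 0.610% of its reads. Over transcripts of at least 1 kb the order of the 7 genes was the same, with Map2 at 373 ± 29.3, Map4 at 226 ± 8.38 and Mapt at 218 ± 18.1 TPM, but Map4 then exceeded Mapt in 16 of 24 libraries. This cut keeps Map4-206, 3446 bases long with 99 coding amino acids, which at 139 TPM held 52.2% of the Map4 TPM. The place of Map4 thus rests on that transcript, and the order without it was not computed.

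Mapt was lower in Grn+/- than in Grn+/+ cortex, with and without the transgene. In Grn+/+ mice it ranged from 556 to 573 CPM without the transgene (median 564) and from 547 to 582 CPM with it (median 566). In Grn+/- mice it ranged from 488 to 525 CPM without the transgene (median 510) and from 450 to 517 CPM with it (median 490). Every one of the 12 Grn+/- libraries thus lay below every one of the 12 Grn+/+ libraries on this scale. Mapt was chosen with this contrast known, and the share of all genes without overlap was not computed, so nothing is read from this. On the TPM scale 11 of the 12 Grn+/- libraries lay below all Grn+/+ libraries, and the ranges met at 226 and 228 TPM. The lowest value, 450 CPM, was that of the transgenic Grn+/- library whose transcript use stood apart.

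The average Grn effect on Mapt, over both transgene states, was a log2 change of −0.18 (SE 0.0208), or 499 ± 21 CPM against 565 ± 9.37 CPM (SD, n = 12 each). Mapt was the only 1 of the 7 genes called in this comparison at an adjusted p under 0.05, beside a background of 0.0219%, or 4 of 18239 genes by edgeR's quasi-likelihood test. This contrast was known when the genes were chosen, so no p is given for them here and nothing is read from that count. Without the transgene the log2 change of Mapt was −0.15 (SE 0.0295), which was not called (background 0.011%). With it the change was −0.21 (SE 0.0295), which was called (background 0.00548%). The difference between them, the interaction, was −0.06 (SE 0.0416). Leaving out the library of lowest Mapt gave an average Grn effect of −0.17 (SE 0.0183) and an interaction of −0.04 (SE 0.0365), and leaving out the library with few transcripts gave −0.18 and −0.06. With age in months as a block, since mice of the same age may be littermates, the average Grn effect on Mapt was −0.17 (SE 0.0282) and was not called. Replicates 1, 4, 5 and 6 of the non-transgenic Grn+/- group have ages (10.56, 9.14 and 8.19 months) found in no other group. The block thus takes these mice out of the contrast. That alternative was chosen after seeing the data. The coefficient of variation of Mapt was 1.03% in Grn+/+ mice without the transgene, 2.19% with it, and 2.81% and 4.81% in the corresponding Grn+/- groups, the last of them 2.90% without its lowest library. For Map4 the same values were 1.07%, 2.78%, 4.90% and 4.89%, and no test of spread was run. In whole tissue, fewer cells of a type and less RNA per cell cannot be told apart.

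**Figure D2:**
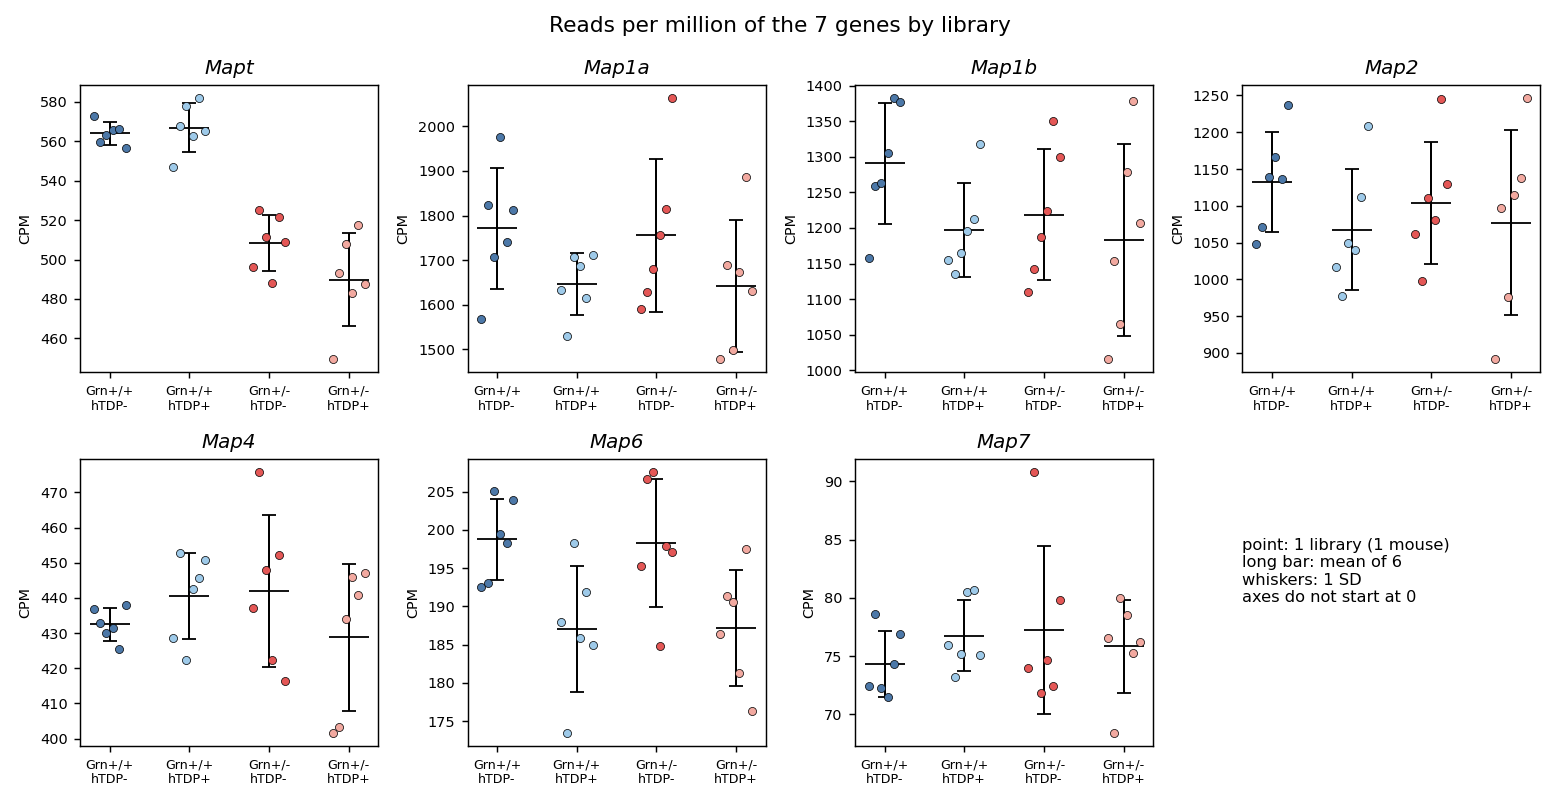
CPM (vertical axes, not starting at 0) of each of the 7 genes in the 4 groups; a point is 1 library, the long bar the mean and the whiskers 1 SD of 6 mice. For Mapt the Grn+/- points lie between 450 and 525 CPM and the Grn+/+ points between 547 and 582 CPM, while the groups of the other 6 genes overlap.

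Mapt-204 held 96.3% of the Mapt reads, so a lower level of the gene had to show in it. The other Mapt transcripts together were at 38.9 ± 8.69 TPM in Grn+/- and 41.8 ± 6.82 TPM in Grn+/+ mice (SD, n = 12 each). Whether the transcripts differ in their change was not tested. In Grn+/+ mice Mapt-204 measured 201 ± 2.59 TPM in the non-transgenic and 200.2 ± 3.35 TPM in the transgenic group, and in Grn+/- mice 178 ± 5.74 and 170.1 ± 9.43 TPM in the same order (SD, n = 6 each). Without the library that stood apart the last of these was 173 ± 7.05 TPM (n = 5). The 12 Grn+/- libraries, 156 to 188 TPM, did not overlap the 12 Grn+/+ libraries, 195 to 205 TPM, and the ratio of their means was 0.868. Mapt was chosen with this contrast known, and the share of all transcripts without overlap was not computed, so nothing is read from this. Mapt-201 gave 26.1 ± 6.66 TPM in Grn+/- and 27.7 ± 4.84 TPM in Grn+/+ mice (n = 12 each), with overlapping ranges and 478 to 1778 reads per library. Its share of the Mapt reads was 3.05% ± 0.705 and 2.84% ± 0.474. With the transgene Mapt-201 was at 24.6 ± 6.63 TPM and without it at 29.2 ± 3.69 TPM, again with overlap. These transcript values are descriptions, and Mapt was not among the genes tested for transcript usage because only 1 of its transcripts reached 5% of its reads.

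**Figure D3:**
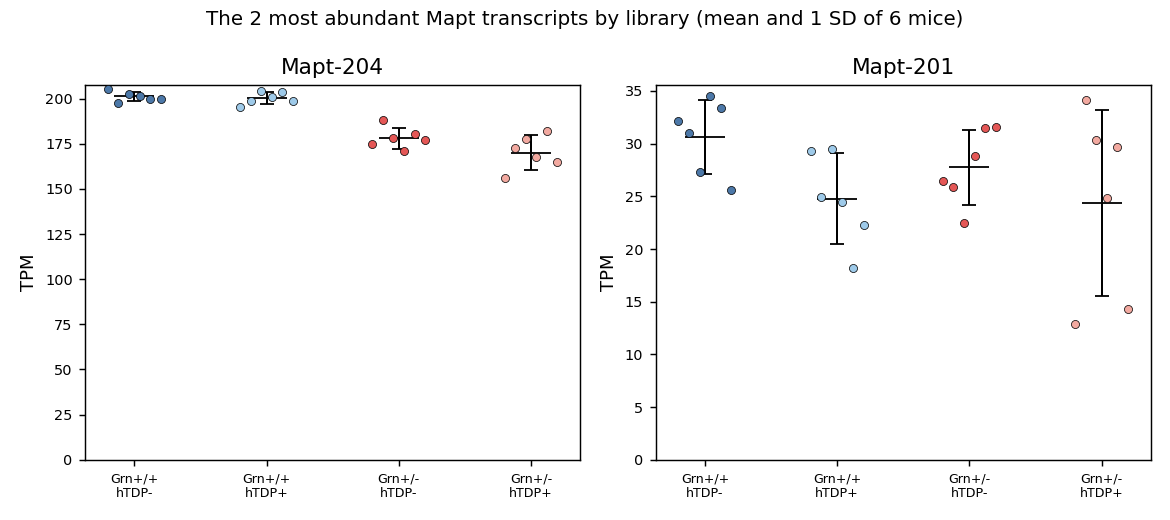
TPM of Mapt-204 (left) and Mapt-201 (right) in each library by group, with the mean and 1 SD of 6 mice. Mapt-204 lies at 195 to 205 TPM in all Grn+/+ libraries and at 156 to 188 TPM in all Grn+/- libraries, while the Mapt-201 groups overlap.

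Mapt lies 1.79 Mb from Grn on chromosome 11. All 4 genes called in the average Grn effect are on that chromosome within 2 Mb of Grn, 1 of them higher and 3 lower. The lower ones are Grn itself (chr11:102430315-102437048) at −0.91 (SE 0.117), the transcript C130046K22Rik (chr11:103697724-103722832) at −0.85 (SE 0.139) from a mean of 2.0 CPM, and Mapt. Within 3 Mb of Grn, a window chosen after these values were seen, 135 genes were tested besides Grn itself. Of these, which include the 3 other called genes, 27 (20%) had an unadjusted edgeR p under 0.05. The share was 4.85% of 1238 genes elsewhere on chromosome 11 and 4.81% of 16865 genes on other chromosomes. The direction was mixed, with 55 of the 135 below 0. The nearest tested neighbours of Mapt were not called: Kansl1, which lies 1139 bases beyond it on the opposite strand, had a log2 change of −0.03 (SE 0.0225), and Crhr1, 55867 bases before it, 0.13 (SE 0.0798). Which strand the libraries keep is not clear from the labels. The antisense gene Gm11659 inside Mapt (chr11:104250902-104259361) had 0 reads in all 24 libraries, and its span overlaps no exon of the quantified Mapt transcripts. Grn genotype and the chromosome segment inherited with each Grn allele cannot be told apart in this design.

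The genes with levels most like those of Mapt over the 24 libraries, by Pearson's r of log2 CPM among 9812 genes with a mean of at least 10 CPM, were Psme3 (0.782), Rab14 (0.738), Champ1 (0.737), Msantd4 (0.736) and Psmd1 (0.735). They are given as a description, since the libraries share the groups in which Mapt differs. Psme3, a gene for a proteasome activator, lies 1.11 Mb from Grn on chromosome 11 and had an average Grn effect of −0.09 (SE 0.0195). The other 4 lie on other chromosomes, with average Grn effects of −0.05 to −0.07. None of the 5 was called.

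Among the 7 genes, the levels of Map1a, Map1b and Map2 rose and fell together from mouse to mouse. The genes were chosen with their levels known and these pairs were examined after values were seen. Their p are therefore given as a description only, and pairs of other genes of like length or level were not examined. Of 21 pairs, Map1b with Map2 had r = 0.826 and rho = 0.830 over 24 libraries (permutation p = 1e-05 for each, the smallest that 100000 permutations can give, adjusted p = 0.000105 and 0.00021). Map1a with Map1b had r = 0.790 and rho = 0.826 (permutation p = 1e-05 and 2e-05, adjusted p = 0.000105 and 0.00021). Map1a with Map2 had r = 0.6249 and rho = 0.657 (permutation p = 0.00111 and 0.00085, adjusted p = 0.00777 and 0.00595). After removing the group means these r were 0.819, 0.777 and 0.585, and without the 2 libraries farthest from the median of the first gene they were 0.792, 0.863 and 0.690. No other pair had an adjusted p under 0.05 by either measure. Nothing is read from that cutoff, since the levels that chose the genes also gave these p. Mapt had r from −0.02 to 0.35 with the other 6 genes, the highest with Map1b (rho = 0.214, permutation p = 0.0910 for r and 0.313 for rho, adjusted p = 0.319 and 0.688, r = 0.212 without the 2 farthest libraries). After removing the group means, the r of Mapt ran from 0.129 with Map7 to 0.434 with Map6 and 0.509 with Map4. Map1a and Map1b have the longest transcripts of the 7, with mean effective lengths of 9.92 and 11.5 kb, against 2.36 kb for Map7 to 4.41 kb for Map2.

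The other 6 genes showed small differences by Grn genotype, with log2 changes from −0.05 (Map1b, SE 0.0442) to 0.02 (Map7, SE 0.0354) and overlapping groups. Map1b, a gene of growing axons, had 1201 ± 112 CPM in the 12 Grn+/- mice and 1244 ± 87.3 CPM in the 12 Grn+/+ mice. Map2, the dendritic member, measured 1091 ± 102 and 1100.2 ± 79.5 CPM, and Map6 192.7 ± 9.54 and 192.9 ± 8.98 CPM. Map4, the member found in most cell types, ranged from 425 to 438 CPM in non-transgenic and from 422 to 453 CPM in transgenic Grn+/+ mice, and from 416 to 476 and from 402 to 447 CPM in the Grn+/- groups. Map7, the kinesin recruiter, had group medians of 73.4, 75.6, 74.3 and 76.4 CPM in the same order. All 4 ranges overlapped for both genes. None of the 7 genes was called in the interaction, where no gene of 18239 was called (background 0%), and 434 of all genes (2.38%) and none of the 7 had an unadjusted p under 0.05. By DESeq2 the interaction had 7 calls over all genes, none among the 7 genes. Interaction values ran from −0.07 (Map7, SE 0.0707) to 0.06 (Map1b, SE 0.0884).

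**Figure D4:**
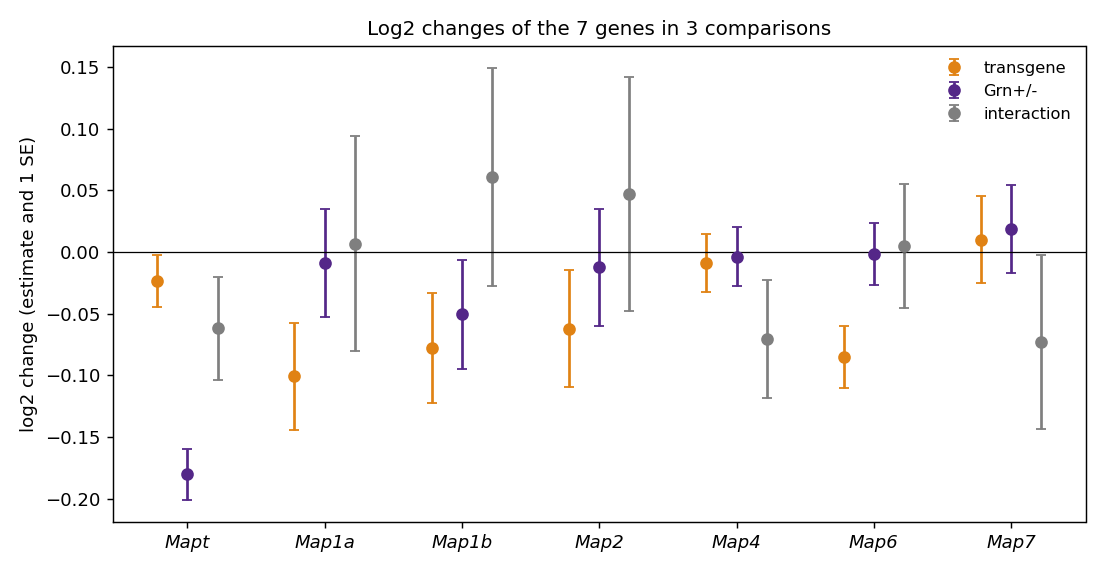
Log2 change (point) with 1 SE (bar) of each gene in the average transgene effect, the average effect of Grn+/- against Grn+/+, and the interaction. Mapt at −0.18 is the lowest value for Grn genotype, and the other 6 lie between −0.05 and 0.02.

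With the transgene 6 of the 7 genes had log2 changes below 0, and none was called (background 0.11%, 20 of 18239 genes, 6 higher and 14 lower). By DESeq2 none of the 7 was called either. An unadjusted edgeR p under 0.05 was found for 2 of the 7 and for 1433 of all genes (7.86%), and nothing is read from the first count, since the genes were chosen with this contrast known. Map6, which stabilises microtubules, ranged from 185 to 208 CPM in the 12 mice without the transgene (median 198) and from 173 to 198 CPM in the 12 with it (median 187). The ranges overlapped, with 3 of the 12 transgenic libraries below all others. Its log2 change was −0.08 (SE 0.0252), or −0.09 (SE 0.0356) in Grn+/+ and −0.08 (SE 0.0356) in Grn+/- mice, and −0.08 without the transgenic library with few transcripts, which had the lowest Map6. Within Grn+/+ mice 0 of the 7 genes were called with the transgene (background 0.0329%), and within Grn+/- mice 0 of 7 (background 0.0219%). Map1a, a stabiliser of mature neurites, ranged from 1567 to 2063 CPM without the transgene (median 1749) and from 1479 to 1885 CPM with it (median 1654). Its log2 change was −0.10 (SE 0.0436), and 3 transgenic libraries lay below all others. Map1b had −0.08 (SE 0.0442), Map2 −0.06 (SE 0.0474; −0.04 without the transgenic Grn+/- library that stood apart), Mapt −0.02 (SE 0.0208; −0.01 without that library), Map4 −0.01 (SE 0.0239) and Map7 0.01 (SE 0.0354). Without either of the libraries that stood apart, the changes of the other 5 genes lay between −0.09 and 0.02. The median over the 7 was −0.06 and that over all tested genes 0.00, with 48.4% of all genes below 0.

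Log2 changes were also compared across all genes by transcript length. With the transgene, of 9813 genes with a mean of at least 10 CPM, the 289 whose mean effective length was 8 kb or more had a median log2 change of −0.07, with 86.9% below 0. The 6147 genes of 2 to 8 kb had a median of −0.02 and the 3377 shorter genes a median of 0.03, with 27.1% below 0. For Grn genotype the medians of the longest and shortest class were −0.01 and 0.01, with 64.0% and 35.9% below 0. For males against females they were −0.03 and 0.01, with 71.3% and 38.6% below 0. Map1a (9.92 kb) and Map1b (11.5 kb) fall in the longest class, and their changes of −0.10 and −0.08 compare with an interquartile range of −0.10 to −0.03 in that class. Map6 at 3.30 kb lies below the interquartile range of −0.05 to 0.01 in its own class. The part of length in these values was not tested. With length-scaled counts, made from TPM and 1 mean length per gene, Map1a had −0.10, Map1b −0.08, Map2 −0.07 and Map6 −0.08. In the same setting Mapt had −0.05, Map4 −0.03 and Map7 0.04. Whether this scaling alters a trend across genes of different length was not tested.

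**Figure D5:**
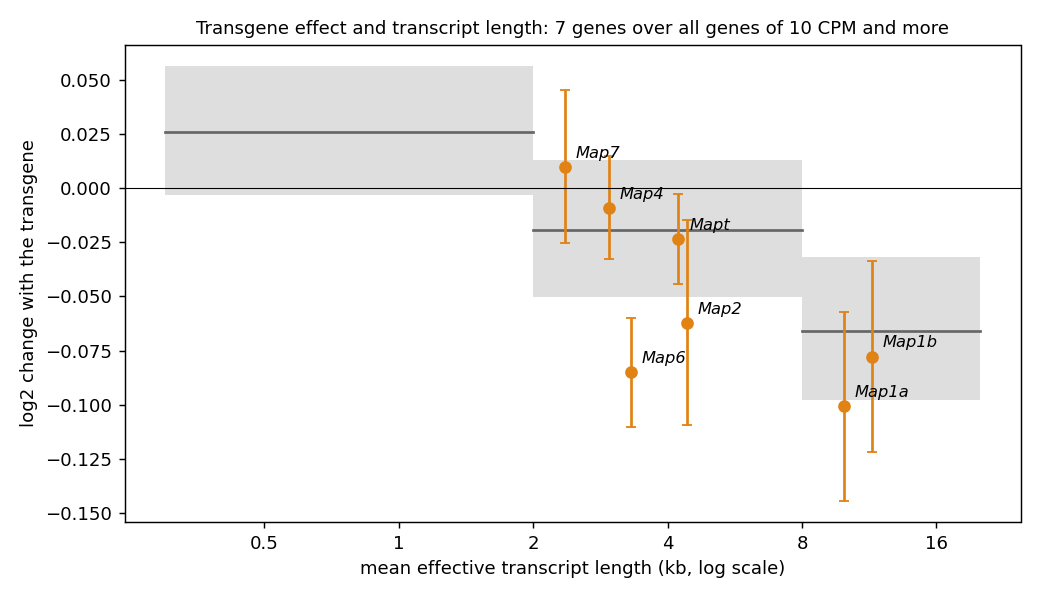
Average transgene effect on the log2 scale with 1 SE (points and bars) of the 7 genes against mean effective transcript length in kb (log axis). Grey bands and lines give the interquartile range and median of all genes of at least 10 CPM in 3 length classes, with medians of 0.03, −0.02 and −0.07 from short to long, and Map1a and Map1b lie in the longest class.

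How reads divide among the transcripts of a gene, its transcript usage, was tested for the 5 genes with at least 2 transcripts above 5% of their reads. None was called with the transgene (background 0.153%, 12 of 7867 genes) or with Grn genotype (background 0.0381%), with edgeR adjusted p of at least 0.997 in both. By limma the adjusted p with the transgene was 0.192 for Map2 and 0.367 or more for the other 4. Map2 has a long form, Map2-204 (1828 amino acids, 46.2% of reads), and a short form, Map2-202 (467 amino acids, 36.5% of reads). As annotated, the last exon has 397 bases in Map2-204 and 3792 bases in Map2-202. The part of this difference at the 3' end in the Map2 shares was not tested. Map2-202 held 33.2% ± 3.53 of the Map2 reads without the transgene and 39.9% ± 7.17 with it, and Map2-204 47.8% ± 1.18 and 44.7% ± 4.59 (SD, n = 12 each). Both ranges overlapped, and the unadjusted p of Map2 was 0.0161 by edgeR, 1 of 294 genes under 0.05. The transgenic Grn+/- library that stood apart had 59.0% Map2-202, and without it the transgenic means were 38.1% ± 4.05 for Map2-202 and 45.9% ± 2.22 for Map2-204 (n = 11). Without that library the unadjusted edgeR p of Map2 was 0.0497, with an adjusted p of 1. Map1a reads were 93.9% Map1a-202 and Map1b reads 99.97% Map1b-201. Map4, which is spliced into many forms, had 55.3% of its reads in Map4-206, whose annotated coding part is 99 amino acids, and 18.5% in Map4-204 (933 amino acids). Map6 reads were divided between Map6-201 (46.6%) and Map6-205 (29.7%), which both code for 906 amino acids and differ in length by 1 base, so their division is uncertain. Map7-202 held 71.9% of Map7 reads.

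Between males and females the 7 genes differed little. None was called (background 0.0713%, 13 of 18239 genes), none had an unadjusted p under 0.05, and DESeq2 called none of the 7. Male minus female log2 changes ran from −0.06 (Map1b, SE 0.0442, edgeR adjusted p = 0.876) to 0.00 (Map6, SE 0.0252, edgeR adjusted p = 0.997). Mapt measured 529 ± 40.4 CPM in males and 535 ± 35.7 CPM in females (n = 12 each), with edgeR adjusted p = 0.926.

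Genes that act on tau or on microtubules were examined in 7 lists: other structural and plus-end proteins, tubulins, tubulin folding and modification, severing, tau kinases, tau phosphatase and isomerase, and tau splicing factors. Of 101 listed genes tested, none was called by edgeR or DESeq2 with the transgene, with Grn genotype or in the interaction. Unadjusted edgeR p under 0.05 were 12, 7 and 2, beside 1433, 899 and 434 of 18239 over all genes. With the transgene, 48.4% of all genes were below 0. Among genes of at least 10 CPM this held for 66.1% of those of 2 to 8 kb and 86.9% of longer ones. The part of length in the list counts was not tested. Of the other structural and plus-end genes, 18 of 22 were below 0 (median −0.03), led by Clasp1 (−0.08, edgeR adjusted p = 0.573), which attaches plus ends, and the minus-end binder Camsap2 (−0.08, edgeR adjusted p = 0.601). Tubulins were below 0 in 12 of 14 (median −0.02), among them Tubg2 (−0.05) and Tuba4a (−0.05). Tau kinases were below 0 in 16 of 20 (median −0.03), with Mark4, which phosphorylates the repeats, at 0.34 (SE 0.0949, edgeR adjusted p = 0.323) and Cdk5r1, the activator of Cdk5, at −0.08 (edgeR adjusted p = 0.493). The medians of the remaining lists lay between −0.01 and 0.03. Agtpbp1, which trims polyglutamate from tubulin, had −0.11 (edgeR adjusted p = 0.517) and Tbca, a tubulin folding cofactor, 0.11. The severing gene Katna1 had 0.16 (SE 0.0944, mean 5.30 CPM). Fignl1, also a severing gene, had −0.46 with a wide SE of 0.323 from a mean of only 0.566 CPM. The phosphatase subunits Ppp2r1a and Ppp2cb had −0.04 and −0.09, and the splicing factors Srsf6 and Tra2b 0.11 (edgeR adjusted p = 0.466) and 0.06.

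With Grn genotype the list medians lay between −0.02 and 0.01, close to the median of 0.01 over all genes. The 2 genes of smallest p in each list were Dclk1 (−0.09) and Clip1 (−0.06) of the other structural and plus-end genes, Tubb2b (0.07) and Tuba1c (−0.12), Agtpbp1 (−0.08) and Tbcb (0.05), Spast (−0.06) and Katnal1 (−0.08), the kinases Gsk3b (−0.07) and Mark3 (−0.04), the phosphatase subunits Ppp2r2a (−0.07) and Ppp2ca (−0.04), and the splicing factors Mbnl2 (−0.05) and Tra2b (−0.06). Their edgeR adjusted p were 0.926 to 0.938. Mapt at −0.18 lay outside the range of the tau kinases and of the phosphatase and splicing lists in this comparison. Since Mapt was chosen with this contrast known, nothing is read from that.

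Markers of other cell types were compared over the same groups, and none was called. Oligodendrocyte markers, all 14 of 14 with reads in every library, summed to 1253 to 3075 CPM in Grn+/+ mice without the transgene, 2021 to 4307 CPM with it, 1361 to 5689 CPM in non-transgenic Grn+/- mice and 1261 to 3162 CPM in transgenic ones. The average transgene effect on them was above 0 for 14 of 14 (median 0.24), with 14 of 14 above 0 in Grn+/+ mice (median 0.67) and 0 of 14 in Grn+/- mice (median −0.18). None of the 14 was called in the interaction, where the smallest unadjusted edgeR p was 0.0619 (Hapln2). In Grn+/- against Grn+/+ mice 14 of 14 were below 0 on average (median −0.09), with 14 of 14 above 0 without the transgene (median 0.34) and 0 of 14 with it (median −0.51). In the average Grn effect 8 of 8 astrocyte, 8 of 8 microglia and 10 of 10 endothelial and mural markers were above 0 (medians 0.09, 0.10 and 0.08). Below 0 were 5 of 11 excitatory neuron markers (median 0.01) and 5 of 7 inhibitory neuron markers (median −0.02), beside 46.5% of all genes. So were 2 of 6 oligodendrocyte precursor markers (median 0.04) and 3 of 4 choroid plexus and ependyma markers (median −0.35). Endothelial and mural markers were also above 0 with the transgene in 10 of 10 (median 0.09), and 9 of 11 excitatory neuron markers were below 0 (median −0.04). With the oligodendrocyte marker level as a covariate, the average Grn effect on Mapt was −0.18 (SE 0.0203). The part of the other cell types in the Mapt values was not tested.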

How the data were processed

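Per the file headers, the authors deposited 1 Salmon quantification per library with expected counts (estimated reads per transcript) and TPM for 149444 transcripts. Tools listed in the submitters' processing notes are DESeq2, Salmon, SAMtools and STAR; their versions, the genome build and the annotation are not given in the sources used. Transcripts were placed in GENCODE M21 (GRCm38) by identifier, without version numbers. This placed 92.4% of them, and the rest held 1.17% to 1.66% of reads and were left out. The 85 transcripts of the 7 genes had the same lengths in both sources. The exon sequence was cut from the M21 transcripts.

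Per gene, expected counts were added up and then rounded. The gene-level test was that of edgeR 4.0.16 (R 4.3.3; quasi-likelihood, two-sided, TMM, default filter on low counts) with terms for group and sex over all 24 libraries. Called means a Benjamini-Hochberg adjusted p under 0.05 over 18239 genes. CPM use TMM-adjusted library sizes. Transcript usage was tested with edgeR's diffSpliceDGE (Simes) over transcripts with at least 5% of their gene. Both fits were checked on simulated data. Alternatives were DESeq2 1.42.0, limma 3.58.1, other scaling, no filter, length-scaled counts, age, no sex term, an oligodendrocyte covariate, leaving out each library and, added after values were seen, age as a block. The median SE of a log2 change above 10 CPM was 0.0399 for an average effect and 0.0798 for the interaction.

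The 7 genes and the lists were chosen with earlier results of these data known. Named are all 7 genes, called list genes or else the 2 of smallest p per list, and the 5 genes most like Mapt. The length classes, the window around Grn and the correlations among the 7 genes were added after values were seen. Replicates were numbered in accession order; animals carry only their own numbers in the labels. Some items are not reported here.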

Additional observations from a re-analysis of the deposited data

Results flagged for a closer look

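CPM of the 7 genes and the read shares of their 10 transcripts with at least 20% of their gene's reads were checked for an outlying mouse in each group of 6, which made 68 checks. A library was picked out where its gap to the nearest one took up too large a part of the group's range (Dixon's test at 95%). Chance alone picks out about 1 in 20, and 5 were found, all in transcript shares and none in a gene's CPM. In replicate 1 of the transgenic Grn+/- group, Map2-204 took 31.8% of Map2 reads, with the nearest library at 42.4%, and Map6-201 took 13.9% of Map6 reads, with the nearest at 43.0%. Map6-205 took 50.7% of Map6 reads in replicate 1 of the transgenic Grn+/+ group, with the nearest at 27.9%, and 35.2% in replicate 6 of the non-transgenic Grn+/+ group, with the nearest at 29.3%. Map6-201 and Map6-205 differ in length by 1 base, and Map6 CPM was not picked out in any of these libraries. Map1b-201 took 99.96% of Map1b reads in replicate 4 of the transgenic Grn+/+ group, with the nearest at 99.98%.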

How the results depend on the processing

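The average Grn effect on Mapt ranged from −0.19 to −0.17 in the 24 fits that left out 1 library and from −0.18 to −0.17 in 8 other alternatives. Its call, which was known when the genes were chosen, was lost with age in months as a block (−0.17). That block takes replicates 1, 4, 5 and 6 of the non-transgenic Grn+/- group out of the contrast. Of 857 other values of the 7 genes under the alternatives, none was called and 855 moved by less than the spread between replicates. The exceptions were 2 interaction values, Map7 at 0.01 with the oligodendrocyte covariate and Map6 at −0.07 with age as a block, and the cause was not tested. With age as a block, an alternative added after seeing the data, the calls over all genes were 2 with the transgene, 1 with Grn genotype, 0 in the interaction and 12 between the sexes. With DESeq2 the calls over all genes were 59 with the transgene, 13 with Grn genotype, 7 in the interaction and 24 between the sexes, against 20, 4, 0 and 13 by edgeR. Leaving out 1 library gave 14 to 22, 4 to 6, 0 to 0 and 12 to 16. Transcript usage with the transgene had 36 calls by limma and 4 by the quasi-likelihood fit, against 12, and 9 to 21 without 1 library, with 21 without replicate 3 of the transgenic Grn+/+ group. With Grn genotype it had 1 by the quasi-likelihood fit, against 3, and 1 to 7 without 1 library, the 1 without replicate 4 of the transgenic Grn+/- group. The cause of these shifts was not tested. No paired analysis was possible because the labels give no replicate numbers that groups share; age stands in for the birth cohort above.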
